A study of Homo sapiens with 90 samples.

Results

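The genes described here are 42 transcripts of the amino acid response: ATF4 with its transcriptional partners and feedback regulators, enzymes of asparagine, serine, one-carbon and sulfur amino acid metabolism, amino acid transporters, and tRNA synthetases with the tRNA export receptor XPOT. They were taken by gene symbol and followed in both arms at all 15 times of an array series. Of the 42 genes 41 had a probe with 1 gene symbol (CARS1 had none), and 39 had a probe with a mean above the brightness limit of 4.24 on the log2 scale, among 12735 genes in all that passed it. The 2 left out lay just below the limit, STC2 at 4.13 and ALDH1L2 at 4.18, and the dimmest genes kept were SLC1A4 at 4.27 and CHAC1 at 4.47. The 39 were 11 transcription factors and feedback regulators, 10 enzymes, 7 transporters and 11 genes of tRNA charging and export. Counted with the regulators were also CHAC1, an enzyme, and VLDLR, a lipoprotein receptor.

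BxPC-3 cells, a long-established human pancreatic adenocarcinoma line, gave the total RNA of all 90 arrays. All cells, controls included, had been starved of serum before time 0, and from time 0 one arm received 10 µg/ml of cetuximab, an antibody that blocks the receptor EGFR, while the other was the negative control, whose content is not given in the sources used here. Sampling ran from time 0 through 3 times in minutes (5, 10, 30) and 4 in hours (1, 2, 4, 8) to 7 daily ones, with 3 arrays per arm at each, which makes 30 groups and 45 arrays per arm. The series holds 1 cell line, and whether the medium was renewed during the week is not given in the sources used here.

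ATF4 is a basic leucine zipper transcription factor whose own mRNA is translated better when the initiation factor eIF2 is phosphorylated by kinases that sense amino acid shortage, unfolded protein, viral RNA or haem shortage. With partners of the C/EBP family it binds a composite element in the promoters of genes for amino acid synthesis, uptake and tRNA charging. Its targets DDIT3 and TRIB3 act on cell fate and on ATF4 itself, and PPP1R15A directs the phosphatase that reverses the phosphorylation of eIF2. Arrays measure mRNA, so neither ATF4 protein nor phosphorylated eIF2 was measured.

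Array medians lay between 4.29 and 4.36, and replicate arrays correlated at 0.978 to 0.989 (Pearson's r over probes, which are no independent replicates). Epithelial markers were bright, with means of 12.02 for KRT19, 10.19 for EPCAM and 7.00 for KRT18, the lowest of the 6 measured, and 10 of 11 markers of leukocytes, endothelium, fibroblasts and acinar cells had means between 3.87 and 4.50. The exception was CD68 at 7.61, which fell by 0.86 ± 0.054 over the control days and was lower under cetuximab over days 1 to 7 (-0.21 ± 0.052). Of the other markers that passed the brightness limit LUM, with a mean of 4.26, was higher in the same comparisons (0.36 ± 0.063 and 0.24 ± 0.061), and KRT7 fell over the control days (-1.03 ± 0.033). The part of these markers in the results was not tested. The labels do not say whether replicates were separate cultures, so a p-value here speaks of the spread among these arrays alone, and that spread may be technical. In such bulk RNA, fewer cells that express a gene and less of its RNA per cell cannot be told apart. Levels and differences are log2 values, differences carry the SE of the fit, a gene was called at an adjusted p under 0.05, and all tests are those of limma with Benjamini-Hochberg adjustment over the 12735 genes.

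The larger movements of these genes were those over time, in both arms. In the controls 34 of the 39 genes fell and 2 rose between the first hours (time 0 to 2 h, 18 arrays) and days 1 to 7 (21 arrays), while 31.6% of all genes tested fell and 35.8% rose. The median change of the 39 genes was -0.70, beside 0.01 over all genes. PPP1R15A fell by 2.31 ± 0.028, ASNS by 2.00 ± 0.038, DDIT3 by 1.54 ± 0.048 and SESN2 by 1.33 ± 0.058, which are 4.98-, 4.01-, 2.91- and 2.51-fold (largest adjusted p = 6.31e-32, limma). The 2 rises were small, 0.22 ± 0.048 for PSPH (adjusted p = 5.03e-05, limma) and 0.09 ± 0.036 for PHGDH (adjusted p = 0.0306). With time 0 alone as the base neither rise was called, at 0.06 for PSPH (adjusted p = 0.651) and 0.07 for PHGDH (adjusted p = 0.489), and without the arrays of replicate 2 PHGDH stood at 0.02 (adjusted p = 0.715). ATF5, SHMT2 and NARS1 were not called, at -0.04 ± 0.057, -0.05 ± 0.025 and 0.07 ± 0.056.

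**Figure D1:**
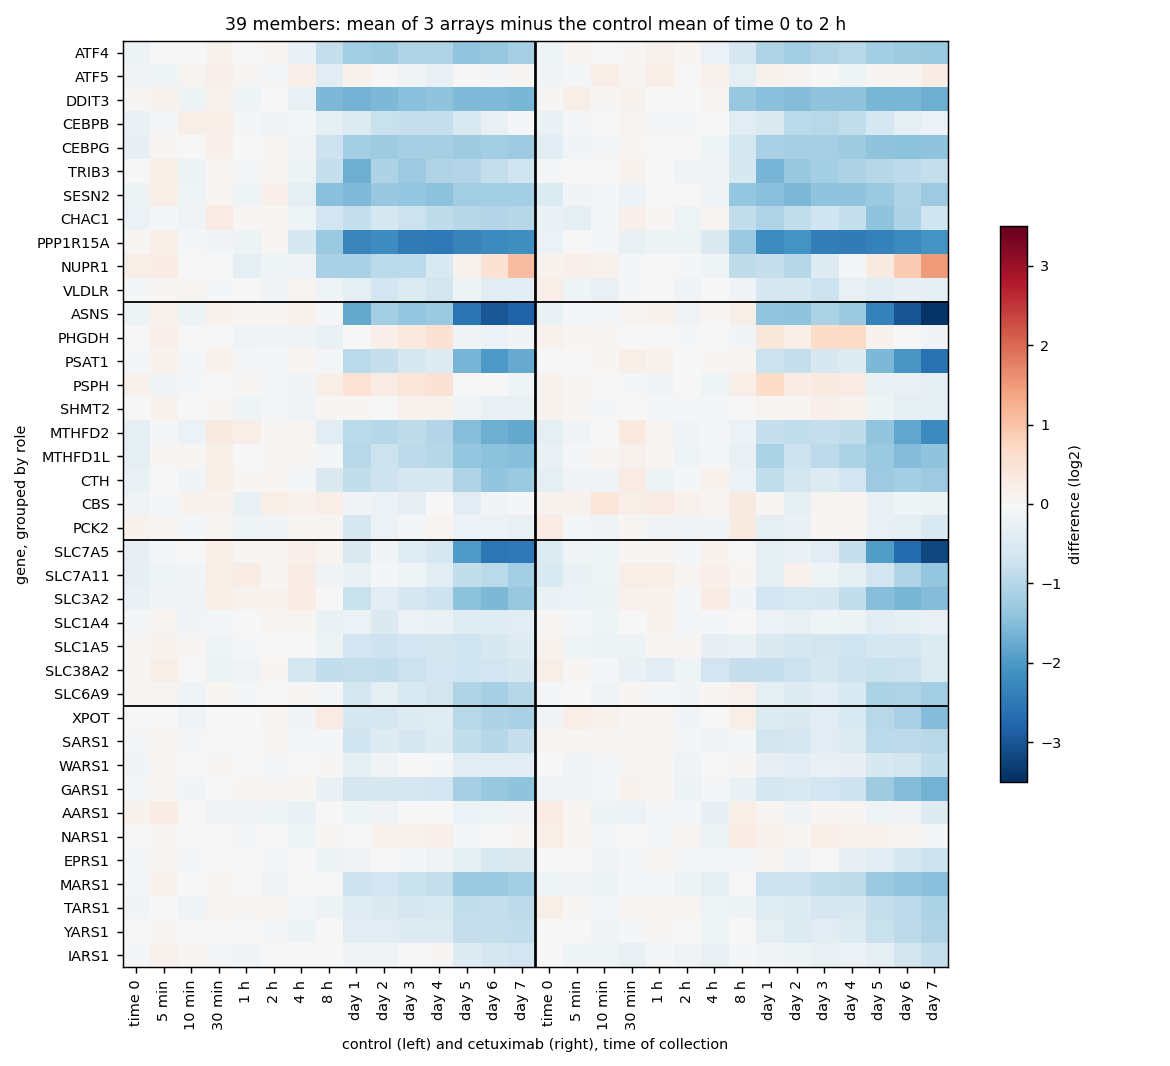
Colour gives the mean of 3 arrays minus the control mean of time 0 to 2 h (log2) for 39 genes, in rows by role, at 15 times in the controls (left) and under cetuximab (right). Most rows are blue from day 1 on, PPP1R15A, DDIT3 and SESN2 already at 8 h, while ASNS, PSAT1 and SLC7A5 darken again after day 4.

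Transcription factors and feedback regulators moved within hours. Between the first hours and the mean of 4 and 8 h, 14 of the 39 genes fell in the controls and 2 rose, beside 18.6% and 20.8% of all genes, and 9 of the 14 were among the 11 regulators. ATF4 stood at 11.75, 12.02 and 12.01 in the control arrays of time 0, at 11.91, 11.75 and 12.00 at 4 h, and at 11.34, 11.29 and 11.19 at 8 h. The arrays of 8 h lay below every array of time 0 and 4 h, and ATF4 fell by 0.53 ± 0.067 over the 2 late times of that day (adjusted p = 9.86e-10, limma). Over days 1 to 7 its control arrays ran from 10.58 through a median of 10.91 to 11.21, all below the 18 arrays of the first hours (11.75 to 12.28), a fall of 1.20 ± 0.046 or 2.30-fold (adjusted p = 2.08e-35, limma).

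DDIT3, the stress factor also known as CHOP, had the largest step between 4 h and 8 h of the 39 genes. Its control arrays read 7.48, 7.57 and 7.51 at 4 h and 5.89, 6.41 and 6.25 at 8 h. The level on day 1 was 6.03, 6.14 and 6.16 and on day 7 it was 6.45, 6.12 and 5.98, so that the arrays of day 1, day 7 and 8 h overlapped. DDIT3 fell by 0.91 ± 0.070 over the hours (adjusted p = 3.43e-18, limma). PPP1R15A fell by 0.92 ± 0.040 over the hours (adjusted p = 2.95e-30), and its control arrays went from 11.50, 11.41 and 11.43 at time 0 to 10.15, 10.15 and 10.01 at 8 h and 8.90, 8.86 and 8.93 on day 4, without overlap. SESN2, a leucine-binding inhibitor of mTORC1 signalling, fell by 0.88 ± 0.086 over the hours (adjusted p = 8.05e-14).

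CHAC1, which degrades glutathione, was dim throughout. Its control arrays stood at 4.64, 4.78 and 4.90 at time 0 and at 4.19, 3.88 and 3.80 on day 7, the latter below the brightness limit. CHAC1 fell by 0.41 ± 0.085 over the hours (adjusted p = 5.78e-05, limma) and by 0.88 ± 0.058 over the days (adjusted p = 2.37e-22). CEBPG, a leucine zipper partner of ATF4, fell by 0.43 ± 0.044 and 1.21 ± 0.030 in the same 2 comparisons.

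A few regulators turned upward again during the week. TRIB3, a pseudokinase that binds ATF4, stood at 9.39, 9.28 and 9.34 in the controls at time 0, at 7.63, 7.65 and 7.65 on day 1 and at 8.75, 8.69 and 8.50 on day 7. The 3 sets of arrays did not overlap, and from day 1 to day 7 TRIB3 rose by 0.134 ± 0.011 per day (adjusted p = 3.75e-17, limma). The mean of its control days still lay 1.09 ± 0.033 below the first hours (adjusted p = 1.17e-41). NUPR1, a small nuclear protein induced by stress, read 4.68, 4.74 and 4.69 on day 1 and 7.09, 6.84 and 6.87 on day 7, above the highest control array of the first hours (6.26). Its control slope was 0.381 ± 0.019 per day (adjusted p = 1.94e-27), the steepest control rise of the 39 genes, while CEBPB, a C/EBP factor, rose by 0.092 ± 0.0090 per day (adjusted p = 3.76e-14).

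**Figure D2:**
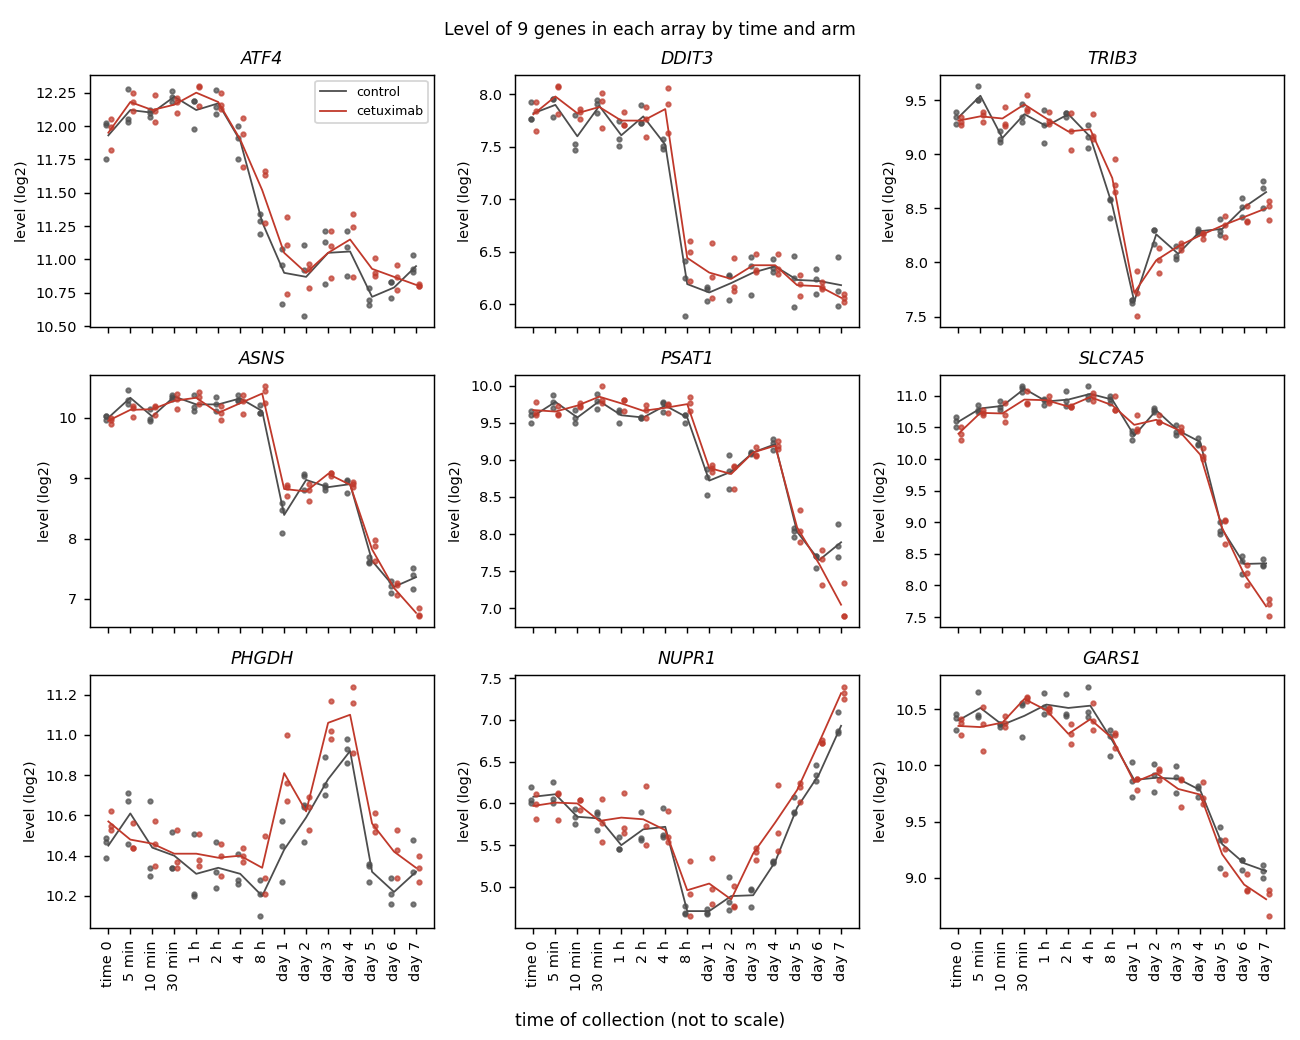
Points are single arrays (3 per arm and time) and lines join their means, for 9 genes, with the log2 level on the vertical axis and the 15 times, not to scale, on the horizontal axis. DDIT3 drops between 4 h and 8 h from 7.52 to 6.19 in the controls, ASNS and PSAT1 drop between 8 h and day 1 and again after day 4, and NUPR1 climbs to 6.93 (controls) and 7.32 (cetuximab) on day 7.

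The enzymes did not move as one group. Of the 10 enzymes 3 fell in the control hours, CTH by 0.29 ± 0.082, PHGDH by 0.17 ± 0.054 and MTHFD2 by 0.15 ± 0.053, beside 18.6% of all genes. Over the control days 7 fell and 2 rose, beside 31.6% and 35.8% of all genes. ASNS, which makes asparagine from aspartate and glutamine, read 10.07, 10.21 and 10.07 in the controls at 8 h and 8.09, 8.59 and 8.48 on day 1. Its means of days 2 to 4 lay between 8.85 and 8.97, with 8.76, 8.97 and 8.95 on day 4, and it read 7.61, 7.70 and 7.59 on day 5. The arrays of 8 h, day 4 and day 5 did not overlap, and the 21 arrays of days 1 to 7 ran from 7.10 through a median of 8.48 to 9.07. In the control hours ASNS was not called, at 0.03 ± 0.056 (adjusted p = 0.755, limma).

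The 3 enzymes of serine synthesis from glycolysis parted from each other. PHGDH, which takes the first step, stood at 10.86, 10.98 and 10.93 in the controls on day 4, above all 18 control arrays of the first hours (10.20 to 10.71), and at a mean of 10.32 on day 5. PSAT1, which takes the next step, read 9.50, 9.60 and 9.61 at 8 h, 9.13, 9.28 and 9.22 on day 4 and 7.55, 7.71 and 7.70 on day 6, without overlap. PSAT1 fell by 1.16 ± 0.041 over the days, or 2.23-fold (adjusted p = 1.19e-37, limma), and was not called in the hours, at 0.00 ± 0.060. PSPH, which takes the last step, ranged over 0.65 between its lowest and highest control mean, from 5.78 on day 7 to 6.43 on day 4.

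Of the mitochondrial one-carbon enzymes MTHFD2 and MTHFD1L fell over the control days by 1.26 ± 0.036 and 1.13 ± 0.035 (adjusted p = 5.69e-43 and 1.16e-40, limma). The 21 control arrays of MTHFD2 on the days ran from 6.67 through a median of 7.54 to 7.85, below the 18 of the first hours (8.16 to 9.02). SHMT2, which splits serine into glycine and a one-carbon unit in the same compartment, kept within 0.41 of itself, from 9.49 on day 7 to 9.90 on day 3. CTH and CBS, the pair of enzymes that lead from homocysteine to cysteine, fell by 0.92 ± 0.056 and 0.17 ± 0.055, and PCK2, mitochondrial PEP carboxykinase, fell by 0.21 ± 0.032. Other probes of CTH moved less, and other probes of PCK2 were not called, at -0.10 and 0.12.

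All 7 transporters fell over the control days, by 0.34 to 1.23, with a median of -0.71, beside 31.6% of all genes that fell. SLC7A5, the exchanger for leucine and other large neutral amino acids, read 10.95, 10.99 and 10.88 in the controls at 8 h, 10.22, 10.24 and 10.33 on day 4, 8.86, 9.00 and 8.81 on day 5 and 8.31, 8.42 and 8.32 on day 7. None of these 4 sets overlapped, and the step from day 4 to day 5 was the larger part of the fall. SLC7A5 fell by 1.23 ± 0.033 over the days (adjusted p = 1.33e-44, limma) after a rise of 0.12 ± 0.048 in the hours (adjusted p = 0.0367). The rise in the hours was not called when any of replicates 1 to 3 was left out (0.09 to 0.14, adjusted p = 0.0539 to 0.390).

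SLC3A2, the heavy chain that carries SLC7A5 and SLC7A11 to the membrane, rose in the control hours by 0.13 ± 0.043 (adjusted p = 0.0117, limma) and fell over the days by 0.97 ± 0.029 (adjusted p = 2.85e-41). Its rise was not called without replicate 2 (0.11, adjusted p = 0.208) or replicate 3 (0.08, adjusted p = 0.162). SLC7A11, which imports cystine, stood at 5.10, 4.83 and 5.14 in the controls at time 0 and at 4.11, 4.14 and 4.10 on day 7, without overlap and on day 7 below the brightness limit of 4.24. It fell by 0.54 ± 0.054 over the days (adjusted p = 2.66e-14), a size measured against a probe at that limit. SLC38A2, a sodium-coupled carrier of small neutral amino acids, fell by 0.74 ± 0.099 in the control hours already (adjusted p = 4.73e-09), the 1 transporter that did.

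Of the 11 genes of tRNA charging and export 10 fell over the control days, by 0.11 to 0.97, with a median of -0.60, beside 31.6% of all genes. In the hours 1 fell, AARS1 by 0.12 ± 0.048, beside 18.6% of all genes. MARS1, which charges tRNA with methionine, fell by 0.97 ± 0.036 and GARS1, the glycine enzyme, by 0.90 ± 0.036 (adjusted p = 6.99e-36 and 3.35e-34, limma). The control arrays of GARS1 read 10.43, 10.47 and 10.70 at 4 h and 9.11, 9.00 and 9.06 on day 7, without overlap. SARS1, the serine enzyme, stood at 8.37, 8.42 and 8.58 at time 0 and at 7.64, 7.69 and 7.61 on day 7, and fell over the days by 0.70 ± 0.052 (adjusted p = 9.05e-20). NARS1, the asparagine enzyme, ranged over 0.33 between its lowest and highest control mean.

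Within the week the controls showed 22 falling and 6 rising slopes among the 39 genes from day 1 to day 7, beside 22.7% and 26.2% of all genes. The steepest falls per day were those of SLC7A5 (-0.447 ± 0.011), ASNS (-0.280 ± 0.013), PSAT1 (-0.212 ± 0.014) and SLC7A11 (-0.193 ± 0.018, with its last day below the brightness limit). Of the synthetases and XPOT 9 of 11 fell, of the enzymes 8 of 10, of the transporters 4 of 7, and of the regulators 1 of 11. The rising slopes belonged to NUPR1, TRIB3, CEBPB, SESN2, SLC1A5 and PCK2. That of SESN2, 0.051 ± 0.020 (adjusted p = 0.0279, limma), was not called when any of replicates 1 to 3 was left out (adjusted p = 0.0772 to 0.0936), nor without day 1 (0.037, adjusted p = 0.236) or day 7 (0.052, adjusted p = 0.0906).

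Other genes of the same processes were counted for comparison, without a test of the difference between lists. Over the control days 31.6% of all genes fell and 35.8% rose. Of 17 other reported ATF4 targets 13 fell and 1 rose over the control days, with a median of -0.33, such as ATF3 at -3.37 ± 0.065 and the thioredoxin reductase TXNRD1 at -2.17 ± 0.047. The 9 other genes of cytosolic synthetases and their scaffold (AIMP1) held 5 falls and 2 rises, with a median of -0.11, such as KARS1 at -0.30 ± 0.039 and QARS1 at 0.57 ± 0.035. The 16 genes listed as mitochondrial synthetases held 10 rises and 3 falls, with a median of 0.19, such as SARS2 at 0.73 ± 0.029 and EARS2 at 0.67 ± 0.039.

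The remaining lists were mixed over the control days, in which 35.8% of all genes rose and 31.6% fell. Of 12 other one-carbon and glycine genes 8 rose and 2 fell, such as the thymidylate synthase TYMS at 1.12 ± 0.038 and the cytosolic SHMT1 at 1.01 ± 0.034. The 14 other amino acid transporters held 4 rises and 6 falls, such as the glutamate carrier SLC1A3 at 2.09 ± 0.040 and the cationic amino acid carrier SLC7A1 at -1.09 ± 0.030. The 15 genes of eIF2, its kinases and its exchange factor held 6 rises and 6 falls, with EIF2AK2 at 0.62 ± 0.057 and the phosphatase subunit PPP1R15B at -0.60 ± 0.064. Of 20 endoplasmic reticulum genes of the ATF6 and XBP1 branches 10 rose and 8 fell, with the chaperones CRELD2 at 1.20 ± 0.034 and CALR at 0.95 ± 0.034 as the largest.

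**Figure D3:**
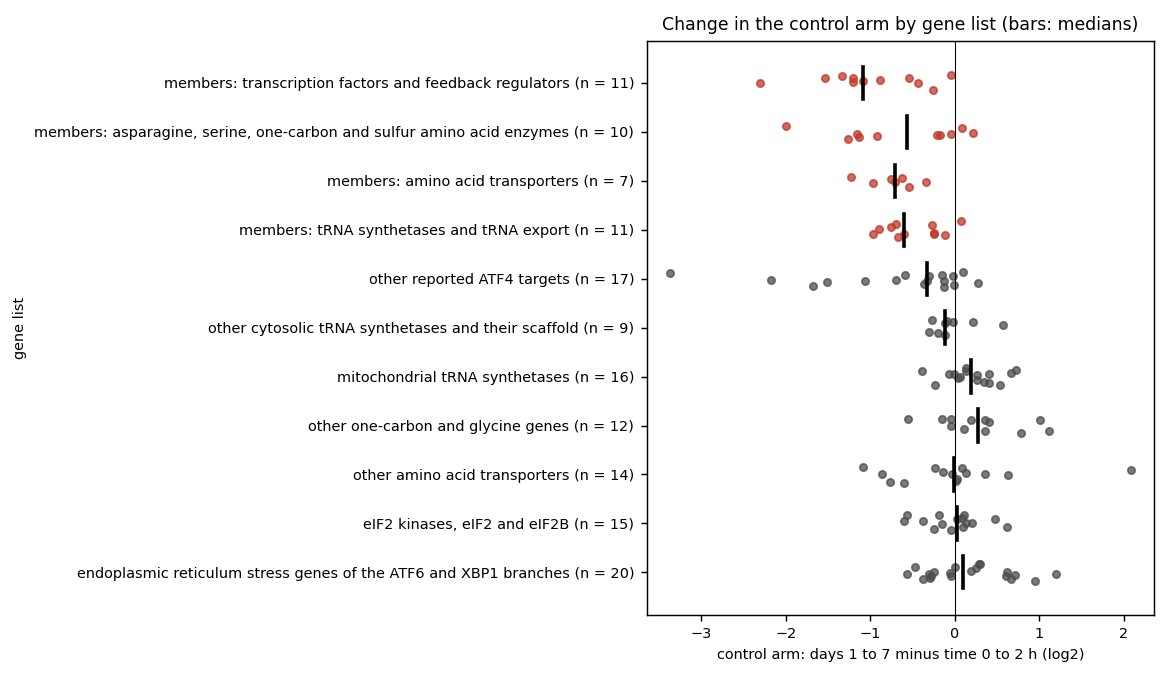
Each point is a gene's change in the controls (days 1 to 7 minus time 0 to 2 h, log2), by list, with the 4 roles of the genes described in red, other lists in grey and black bars at the medians. The red medians lie between -1.09 and -0.56, and the grey ones between -0.33 and 0.27. All lists were chosen with earlier results of these data known.

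The promoters were searched for the composite C/EBP-ATF element, written as TGATGNAAN on both strands from 250 bases before to 50 bases after each start site, in RefSeq sequences of GRCh38.p14. Of the 42 genes 36 had such a window and 14 of them (38.9%) held a match, beside 1215 of 27305 genes in all (4.45%). Counted by window the matches were 16 of 60 (26.7%) beside 1268 of 35116 (3.61%). The genes were chosen for a response in which ATF4 binds this element, so their higher share is no test. By role the genes with a match were 7 of 11 genes of tRNA charging and export, 3 of 6 transporters, 2 of 8 enzymes and 2 of 11 regulators. The changes of genes with and without a match overlapped widely. The 13 measured genes with a match had a median of -0.88 over the control days (range -2.00 to 0.07) and the 21 without one a median of -0.75 (range -2.31 to 0.09). A match of letters is a description and says nothing of binding in these cells. The 250 bases before the start are printed for the 4 genes with the largest change over the control days among those whose match lies wholly before the start, with the match in capitals. In GARS1 the match is read from the opposite strand, so its reverse complement is in capitals.
ASNS (chr7:97872409-97872658, minus strand): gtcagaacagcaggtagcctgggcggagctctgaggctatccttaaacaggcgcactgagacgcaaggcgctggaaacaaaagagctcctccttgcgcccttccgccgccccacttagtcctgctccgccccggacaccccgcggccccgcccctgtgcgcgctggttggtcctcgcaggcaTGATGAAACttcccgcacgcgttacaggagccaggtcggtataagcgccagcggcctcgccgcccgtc
CEBPG (chr19:33373863-33374112, plus strand): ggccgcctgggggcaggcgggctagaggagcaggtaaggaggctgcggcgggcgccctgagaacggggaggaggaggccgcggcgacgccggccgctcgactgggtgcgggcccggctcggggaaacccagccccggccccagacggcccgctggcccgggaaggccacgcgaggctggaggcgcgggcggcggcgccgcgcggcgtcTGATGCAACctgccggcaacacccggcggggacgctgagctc
MTHFD1L (chr6:150866236-150866485, plus strand): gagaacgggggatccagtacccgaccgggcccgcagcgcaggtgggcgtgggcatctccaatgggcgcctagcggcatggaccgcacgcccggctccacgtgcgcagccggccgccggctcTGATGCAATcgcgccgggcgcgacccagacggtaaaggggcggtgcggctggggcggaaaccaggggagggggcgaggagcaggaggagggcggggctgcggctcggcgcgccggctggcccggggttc
GARS1 (chr7:30594628-30594877, plus strand): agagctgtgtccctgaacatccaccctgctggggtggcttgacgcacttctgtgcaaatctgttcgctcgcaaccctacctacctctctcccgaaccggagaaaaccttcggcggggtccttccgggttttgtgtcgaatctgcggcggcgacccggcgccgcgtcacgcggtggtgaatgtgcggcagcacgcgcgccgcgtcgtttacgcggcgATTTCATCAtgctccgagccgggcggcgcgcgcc
Counted from the start site, the match begins at position -68 in ASNS, -42 in CEBPG, -129 in MTHFD1L (in the window printed, 1 of several for this gene) and -34 in GARS1. Over the control days these 4 genes fell by 2.00, 1.21, 1.13 and 0.90.

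In the cetuximab arm most of these genes fell as well. Against that arm's own first hours 13 of the 39 genes fell and 4 rose at 4 and 8 h, beside 15.9% and 19.0% of all genes. On the days 33 fell and 1 rose, beside 31.6% and 36.1%, with a median change of -0.68. From day 1 to day 7, 25 slopes fell and 5 rose, beside 23.8% and 26.0%. PPP1R15A fell by 2.12 ± 0.028 over the days, ASNS by 1.96 ± 0.038, DDIT3 by 1.59 ± 0.048 and PSAT1 by 1.33 ± 0.041 (largest adjusted p = 2.61e-41, limma).

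In the cetuximab arm the 4 rises of the hours were ASNS at 0.17 ± 0.056, SLC7A5 at 0.16 ± 0.048, SLC6A9, a glycine transporter, at 0.16 ± 0.062 and SLC3A2 at 0.15 ± 0.043. None of the 4 was called without the arrays of replicate 3 (0.08, 0.08, 0.06 and 0.08), and with the mean of its 2 probes ASNS stood at -0.02 (adjusted p = 0.852). The 1 rise of the days was PHGDH at 0.25 ± 0.036 (adjusted p = 1.02e-08, limma), which was not called against time 0 alone (0.13, adjusted p = 0.106). The steepest slopes per day were SLC7A5 at -0.538 ± 0.011, ASNS at -0.378 ± 0.013, PSAT1 at -0.320 ± 0.014 and, upward, NUPR1 at 0.406 ± 0.019.

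At time 0, 1 of the 39 genes differed between the arms, downward, beside 1.21% of all genes lower and 1.27% higher. PPP1R15A read 11.50, 11.41 and 11.43 in the controls and 11.21, 11.09 and 11.26 in the cetuximab arm, without overlap, a difference of -0.26 ± 0.070 (adjusted p = 0.0293, limma). It was not called with the 6 arrays of time 0 alone in the fit (adjusted p = 0.269), nor when any of replicates 1 to 3 was left out (adjusted p = 0.0829 to 0.497). ATF4 differed by 0.03 ± 0.12 and ASNS by -0.06 ± 0.097.

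In the first 8 h after cetuximab the arms stayed close for these genes. Averaged over the 7 times from 5 min to 8 h (21 arrays per arm), 2 genes were higher and 3 lower in the treated arm, beside 4.09% and 5.96% of all genes. IARS1, the isoleucine synthetase, ran from 8.51 through a median of 8.70 to 8.92 in the controls and from 8.19 through 8.56 to 8.85 under cetuximab. The ranges overlapped widely, the difference was -0.16 ± 0.037 (1.12-fold, adjusted p = 0.00134, limma), and it went the same way at 6 of 7 times. MARS1 ran from 8.53 through 8.86 to 9.03 in the controls and from 8.40 through 8.74 to 8.85 under cetuximab, a difference of -0.14 ± 0.035 (adjusted p = 0.0047), with the same sign at 7 of 7 times.

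DDIT3 was higher by 0.14 ± 0.046 in this window (adjusted p = 0.0351, limma), with 7.48, 7.57 and 7.51 in the controls and 7.63, 7.91 and 8.06 under cetuximab at 4 h. These arrays did not overlap, yet at 4 h alone the difference of 0.34 ± 0.12 was not called (adjusted p = 0.153). CBS was higher by 0.16 ± 0.053 (adjusted p = 0.0352) and PPP1R15A lower by 0.08 ± 0.027 (adjusted p = 0.0296), the latter after its difference at time 0. CBS was dim, with a mean of 4.53 over all arrays. ATF4 was not called at 0.06 ± 0.044, nor were TRIB3 at 0.04 ± 0.031, CHAC1 at -0.06 ± 0.056, SLC7A11 at -0.01 ± 0.052 and SARS1 at 0.02 ± 0.050. Also not called were SLC7A5 at -0.08 ± 0.032 (adjusted p = 0.081), PSAT1 at 0.07 ± 0.039, PHGDH at 0.04 ± 0.035 and ASNS at 0.00 ± 0.037.

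Calls in the first 8 h were close to the threshold. DDIT3 was lost without any of 10 min, 1 h, 4 h or 8 h (adjusted p = 0.0629 to 0.208), CBS without 5 min, 10 min or 1 h (0.0766 to 0.356), and PPP1R15A without 5 min, 30 min or 2 h (0.126 to 0.195), or without replicate 1, 2 or 3 (0.128 to 0.219). MARS1 was lost without 4 h (adjusted p = 0.0681), only IARS1 of the 5 was called without the arrays of replicate 2, and IARS1 was lost with the mean of its 2 probes (-0.09, adjusted p = 0.0629). At single times none of the 39 genes was called at 5 min (0.00785% of all genes called in either direction), 10 min (0.00785%), 30 min (0.126%), 1 h (0.306%), 2 h (0.408%), 4 h (1.71%) or 8 h (0.503%). At an unadjusted p under 0.05 (limma) there were 9, 10, 2, 2, 4, 4 and 7 of the 39. Over all 12735 genes the same limit gave 788, 861, 1100, 1255, 878, 1598 and 1202.

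Over days 1 to 7 (21 arrays per arm) 2 genes were higher and 3 lower under cetuximab, beside 7.39% and 5.96% of all genes. NUPR1 was higher by 0.32 ± 0.055 (1.25-fold, adjusted p = 6.77e-06, limma) and on 6 of 7 days. On day 3 its arrays read 4.96, 4.76 and 4.98 in the controls and 5.42, 5.46 and 5.32 under cetuximab, and on day 7 they read 7.09, 6.84 and 6.87 against 7.25, 7.40 and 7.32. Neither day's arrays overlapped between the arms, yet on day 7 taken alone NUPR1 was not called.

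PHGDH was higher on 7 of 7 days, by 0.19 ± 0.035 (1.14-fold, adjusted p = 3.34e-05, limma). Its control arrays of the days ran from 10.16 through a median of 10.47 to 10.98, and those under cetuximab from 10.27 through 10.64 to 11.24. WARS1, the tryptophan synthetase, was lower by 0.23 ± 0.032 (1.17-fold, adjusted p = 7.66e-08) and on 6 of 7 days. Its arrays ran from 8.36 through 8.63 to 8.97 in the controls and from 7.95 through 8.47 to 8.86 under cetuximab. On day 2 the arrays of WARS1 read 8.69, 8.82 and 8.86 against 8.42, 8.60 and 8.60, without overlap, yet on that day taken alone it was not called. The calls of NUPR1, PHGDH and WARS1 over the days were kept under every alternative run. At time 0 PHGDH stood at 0.12 ± 0.093 and NUPR1 at -0.11 ± 0.15, both without a call. From the hours to the days the change of the difference was not called for NUPR1 (0.22 ± 0.078, adjusted p = 0.0725) or PHGDH (0.15 ± 0.050, adjusted p = 0.0526).

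The other calls of the days were SLC7A5, lower by 0.14 ± 0.032 (adjusted p = 0.000562, limma), and CEBPB, lower by 0.09 ± 0.026 (adjusted p = 0.00931) and on 7 of 7 days. Without day 7 SLC7A5 stood at -0.05 (adjusted p = 0.385), and without the arrays of replicate 2 its adjusted p was 0.0522. SLC7A5 already stood at -0.19 ± 0.084 at time 0 (adjusted p = 0.248) and at -0.08 ± 0.032 from 5 min to 8 h (adjusted p = 0.081), both without a call. The change of its difference from the hours to the days was not called either (-0.06 ± 0.045, adjusted p = 0.54). CEBPB was not called without replicate 1 (-0.06, adjusted p = 0.249), replicate 2 (adjusted p = 0.0779) or day 3 (adjusted p = 0.0614). Without day 1 the count rose from 5 to 11 genes, PSAT1 among them at -0.15 (adjusted p = 0.0115). With all days PSAT1 was not called, at -0.10 ± 0.039 (adjusted p = 0.0706). ATF4 itself was not called at 0.06 ± 0.044, nor DDIT3 at 0.01 ± 0.046, TRIB3 at -0.05 ± 0.031, CHAC1 at -0.07 ± 0.056, ASNS at 0.00 ± 0.037, SLC7A11 at 0.01 ± 0.052 or SARS1 at -0.01 ± 0.050.

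**Figure D4:**
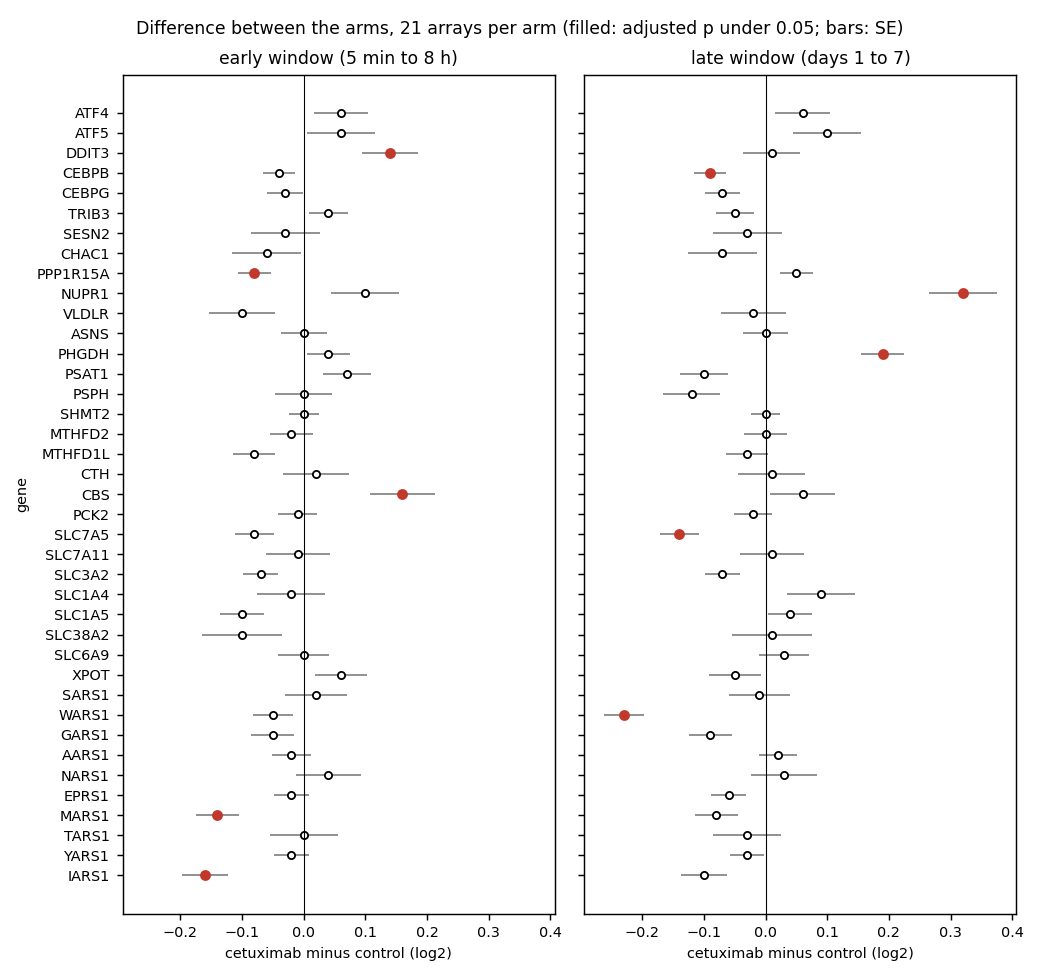
Points are the difference cetuximab minus control (log2) with its SE, for 39 genes in the mean of 5 min to 8 h (left) and of days 1 to 7 (right), 21 arrays per arm, filled where called. The differences lie between -0.16 and 0.16 on the left and between -0.23 (WARS1) and 0.32 (NUPR1) on the right.

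Over the same days, with 7.39% of all genes higher and 5.96% lower, the other lists differed in their counts. Of 17 other reported ATF4 targets 3 were higher and 2 lower, with GDF15, a stress cytokine, at -0.27 ± 0.039 and JDP2, a leucine zipper repressor, at 0.27 ± 0.052. None of the 9 other genes of cytosolic synthetases and their scaffold was called (1 at an unadjusted p under 0.05, limma, beside 3036 of all 12735 genes). Of the 16 genes listed as mitochondrial synthetases 1 was lower. Of the other one-carbon genes 2 were higher and 4 lower among 12, of the other transporters 1 and 2 among 14, of the eIF2 genes 1 and 1 among 15, and of the endoplasmic reticulum genes 0 and 1 among 20. SLC1A3, which rose in the controls, was 0.37 ± 0.038 higher under cetuximab.

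The difference between the arms changed from the hours to the days for 3 of the 39 genes, 1 upward and 2 downward, beside 4.23% and 2.76% of all genes. These were PPP1R15A at 0.14 ± 0.037 (adjusted p = 0.011, limma), WARS1 at -0.18 ± 0.046 (adjusted p = 0.00664) and PSAT1 at -0.17 ± 0.055 (adjusted p = 0.0379). None of the 3 was called without the arrays of replicate 2 (adjusted p = 0.193, 0.305 and 0.0927). Nor was PPP1R15A without replicate 3, WARS1 without replicate 1, or PSAT1 without replicate 1 or 3 (adjusted p = 0.152, 0.0546, 0.0807 and 0.533).

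The slope over days 1 to 7 was lower under cetuximab for 6 of the 39 genes and higher for none, beside 0.754% and 0.589% of all genes. Of the 39 differences in slope 32 were below 0, beside 6743 of all 12735 genes, and the signs were not counted again without day 7. The 6 were PSAT1 at -0.108 ± 0.019 per day, ASNS at -0.098 ± 0.018, SLC7A5 at -0.091 ± 0.016, MTHFD2 at -0.079 ± 0.017, PCK2 at -0.066 ± 0.015 and AARS1 at -0.059 ± 0.016 (largest adjusted p = 0.0329, limma). They came from asparagine and serine synthesis, mitochondrial one-carbon metabolism, leucine transport, alanine tRNA charging and, with PCK2, the making of phosphoenolpyruvate, while none of the 11 regulators was called, with ATF4 at -0.021 ± 0.022. All 6 calls were lost without day 7, when PSAT1 stood at -0.024, ASNS at -0.037, SLC7A5 at -0.038 and MTHFD2 at -0.038 (adjusted p = 0.508 to 0.814). PSAT1 was not called without the arrays of replicate 1 (adjusted p = 0.175), ASNS not without replicate 2 (0.0772) or day 1 (0.141), and MTHFD2 not without any of replicates 1 to 3 (0.0772 to 0.244).

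Day 7 held 6 of the 9 calls between the arms at single times. On it 6 of the 39 genes were lower under cetuximab and none higher, beside 1.33% of all genes called in either direction. PSAT1 read 8.14, 7.69 and 7.84 in the controls and 6.90, 7.34 and 6.90 under cetuximab, a difference of -0.84 ± 0.10 (1.79-fold, adjusted p = 2.18e-08, limma). SLC7A5 read 8.31, 8.42 and 8.32 against 7.78, 7.70 and 7.52, a difference of -0.68 ± 0.084 (1.60-fold, adjusted p = 2.35e-08). ASNS read 7.51, 7.40 and 7.16 against 6.85, 6.72 and 6.73, a difference of -0.59 ± 0.097 (adjusted p = 5e-05). In each of these genes every treated array lay below every control array. The genes were picked by their calls on these same arrays, so the separation is no further support. The share of all genes without overlap on day 7 was not counted.

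On day 6 the arms overlapped for PSAT1 and ASNS. PSAT1 read 7.55, 7.71 and 7.70 in the controls and 7.79, 7.67 and 7.32 under cetuximab, and ASNS read 7.21, 7.30 and 7.10 against 7.26, 7.23 and 7.06. From day 6 to day 7 the control means went from 7.65 to 7.89 for PSAT1, from 7.20 to 7.36 for ASNS and from 8.34 to 8.35 for SLC7A5, while the treated means went from 7.60 to 7.05, from 7.18 to 6.77 and from 8.18 to 7.67. Of the 39 genes 22 had their lowest treated mean on day 7, and in the controls 11 had it on day 7 and 11 on day 6. The times of the lowest means were not counted over all genes.

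**Figure D5:**
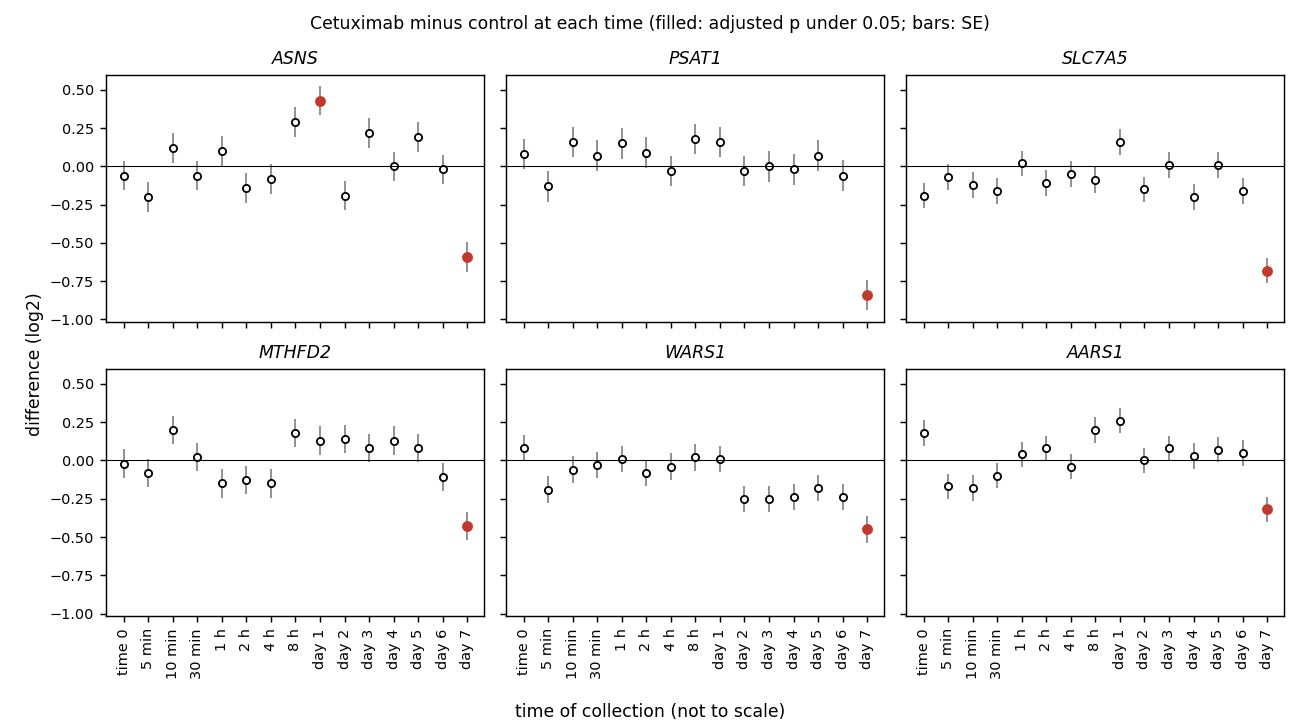
Points are the difference cetuximab minus control (log2) with its SE at each of 15 times, 3 arrays per arm, for the 6 genes called on day 7, filled where called. On day 7 all 6 are below 0, from -0.32 (AARS1) to -0.84 (PSAT1), and ASNS is the 1 gene of the 6 called at another time, day 1, at 0.43.

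The other 3 genes lower on day 7 were WARS1, MTHFD2 and AARS1. WARS1 read 8.58, 8.57 and 8.36 in the controls and 8.17, 7.95 and 8.03 under cetuximab (-0.45 ± 0.086, adjusted p = 5.48e-04, limma). MTHFD2 read 6.81, 6.83 and 6.85 against 6.22, 6.52 and 6.45 (-0.43 ± 0.092, adjusted p = 0.00273), and AARS1 read 10.35, 10.20 and 10.09 against 9.91, 9.89 and 9.88 (-0.32 ± 0.083, adjusted p = 0.0291). None of these sets overlapped, in genes picked by their calls on the same arrays. XPOT, PCK2 and MARS1 were not called on day 7, at -0.39 ± 0.11, -0.27 ± 0.081 and -0.28 ± 0.093, nor was ATF4 at -0.14 ± 0.12.

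These day 7 calls lean on the spread shared by all 90 arrays. With only the 6 arrays of day 7 in the fit SLC7A5 alone was called, and PSAT1, ASNS, WARS1, MTHFD2 and AARS1 had an adjusted p of 0.0520, 0.0809, 0.172, 0.193 and 0.454. Leaving out single arrays of day 7 kept PSAT1, SLC7A5, ASNS and WARS1 called each time, while MTHFD2 was lost without cetuximab replicate 1 (adjusted p = 0.0907) and AARS1 without any array but control replicate 3 (0.0756 to 0.287). Without all arrays of replicate 2, ASNS (adjusted p = 0.0785) and WARS1 (0.288) were not called either.

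Earlier days held 3 calls, all higher under cetuximab. On day 1 (1.41% of all genes called) ASNS read 8.09, 8.59 and 8.48 in the controls and 8.70, 8.86 and 8.89 under cetuximab, a difference of 0.43 ± 0.097 (1.35-fold, adjusted p = 0.0056, limma). PHGDH on that day read 10.27, 10.45 and 10.57 against 10.67, 10.76 and 11.00, a difference of 0.38 ± 0.093 (adjusted p = 0.0127). Neither set overlapped, and neither call held without control replicate 1 (0.28 and 0.30, adjusted p = 0.246 and 0.194) or cetuximab replicate 3 (0.39 and 0.29, adjusted p = 0.0529 and 0.196). On day 3 (2.47%) NUPR1 was higher by 0.50 ± 0.15 (adjusted p = 0.0422), a call lost without any 1 of the 6 arrays (adjusted p = 0.0712 to 0.251).

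On the other days none of the 39 genes was called, on day 2 (1.88% of all genes called), day 4 (2.96%), day 5 (1.11%) and day 6 (0.722%). At an unadjusted p under 0.05 (limma) there were 5, 7, 5 and 6 of the 39, beside 1470, 1551, 1290 and 1122 of all 12735 genes. Other settings called 1 or 2 genes on some of these days. With 3 arrays per arm at a single time the SE of a difference was 0.097 for ASNS and 0.10 for PSAT1, which limits what a single time can show.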

How the data were processed

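Total RNA was labelled with biotin and hybridised to Illumina HumanHT-12 v4 BeadChips. The authors deposited normalized values on a log2 scale (the base was inferred from their range of 0.26 to 13.76), and their processing notes name limma with no version. The sources used here give neither the background correction nor the normalization method, and no slide or scan date, so no slide effect was tested. Of 47292 probes 30096 carried 1 gene symbol. The brightest probe stood for a gene, and 12735 genes whose probe lay above 4.24, the median over all probes, were kept. All 90 arrays entered a single linear model of 30 group means (limma 3.58.1 under R 4.3.3), whose moderated tests had 60 residual degrees of freedom. Contrasts were two-sided with Benjamini-Hochberg adjustment over all genes, and slopes were linear over the 7 daily means. Members and lists were chosen with earlier results of these data known. Values are given for up to 4 called rises and 4 falls per contrast. For 10 genes (ATF4, DDIT3, CHAC1, TRIB3, ASNS, PHGDH, PSAT1, SLC7A11, SLC7A5 and SARS1) they are given in both windows and the control days, called or not. They are also given for up to 2 called genes of each other list, and for further members where a description needed them. Promoter sequences came from RefSeq. The procedure was tested on simulated data. Alternatives were median centring, quantile normalization, no filter or a limit of 5, the mean of a gene's probes, a trended robust prior, only the arrays compared, 3 forms of replicate block, each replicate, time or day left out, and time 0 as base. Leaving out a day of a slope or a single array was added after seeing the data.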

Additional observations from a re-analysis of the deposited data

Results flagged for a closer look

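Differences between the arms that themselves changed over time were picked out for 9 results by a test of the change (limma, adjusted over all genes), and each is open to the limits named here. From the hours to the days the difference cetuximab minus control changed by 0.14 for PPP1R15A, -0.17 for PSAT1 and -0.18 for WARS1. The slope from day 1 to day 7 differed between the arms by -0.098 per day for ASNS, -0.108 for PSAT1, -0.079 for MTHFD2, -0.066 for PCK2, -0.091 for SLC7A5 and -0.059 for AARS1. None of the 6 slope differences was called without day 7, and none of the 3 changes from hours to days without the arrays of replicate 2. No explanation of these differences was tested.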

How the results depend on the processing

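For the 92 results on named genes, 1518 of 1650 values under the alternatives kept their direction and their side of the threshold, 127 lost the call, 4 gained one and 1 reversed, ASNS in the cetuximab hours, at -0.02 with the mean of its probes. With no brightness filter the count of genes called was 0 at time 0 and 2 in the early window; with the stricter limit it was 8 for the days and 5 for late minus early. With only the arrays compared in the fit, the count at time 0 was 0 and that of calls at single times fell from 9 to 1. Times with no call gained 1 under some alternatives (1 h, 4 h, day 2, day 4, day 6), and day 4 gained 2 with the replicate block by time. Without 5 min, 10 min or 4 h the early count was 3 each, without day 1 the late count was 11 and the count of slope differences 3, and without day 7 the latter was 0. Leaving out 1 replicate number gave 0 to 1 genes at time 0, 1 to 4 in the early window, 4 to 6 over the days, 0 to 3 for late minus early, 2 to 6 slope differences, 11 to 19 in the cetuximab hours and 2 to 9 calls at single times. Over all genes the same gave 309 to 1188 calls in the early window (1280 with all arrays) and 920 to 1685 over the days (1700). The counts of the control days and cetuximab days stayed between 33 and 38 and between 33 and 35. These runs have fewer arrays, and no other cause was tested.

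The labels do not say what the replicate numbers stand for. Deviations of same-numbered arrays of the 2 arms at 43 matched pairs correlated at -0.0361 to 0.573 (median 0.13), with 26 of 43 over 0.1. Since neither the labels nor every pair bears out a pairing, the numbers were not taken as pairs, although all 3 pairs of time 0, day 1 and day 3 were over 0.1. With a replicate block by time the calls at single times were 16, with a fixed or random replicate block 11, and no other count over a window or slope moved by over 1.5 times. The block by time ended the calls of PPP1R15A in the early window (-0.07, adjusted p = 0.105) and of PSAT1 for late minus early (-0.19, adjusted p = 0.0814).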

Other observations

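Where a gene had several probes, they were compared over the control days. A second probe agreed in direction for ASNS (-1.65 beside -2.00), ATF4 (-1.80 beside -1.20), SLC3A2 (-1.19 beside -0.97) and NUPR1 (-0.22 beside -0.26), and in the comparison of the arms over days 1 to 7 for WARS1 (-0.21 beside -0.23) and NUPR1 (0.36 beside 0.32). Dimmer probes moved less for CTH (-0.28 and -0.18 beside -0.92) and for ATF4, whose dimmest probe read -0.19. One of SLC6A9 was not called, at 0.07 beside -0.76, nor were the other probes of PCK2, at -0.10 and 0.12 beside -0.21. In the slope difference between the arms the second probe of ASNS, at -0.07, was not called (adjusted p = 0.473, limma, over all probes).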
